A study of Mus musculus with 6 samples.

Results

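The GC-rich new lncRNAs were the deposited records in which G plus C made up at least 50% of the RNA sequence. They were 628 of 8040 records, or 7.81%. They were divided by the CpG observed/expected ratio, which is the CpG count times the length, divided by the product of the C and G counts. At a ratio of 0.6 or more a record was called CpG-island-like, and 77 records were. The other 551 were called other GC-rich. A record is 1 assembled transcript that the authors took to be new, with its sequence, a predicted secondary structure and a folding free energy.

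RNA came from the cortex of adult male C57BL/6 wild type mice, written C57BL/6 J in the study's methods. SAH was induced by endovascular perforation, and cortex near the bleeding was taken at 24 h. Control mice had the surgery with no vessel perforated, according to the study's methods, and are called normal in the labels. Each of the 3 control and 3 SAH libraries held the pooled lysates of 3 mice. The deposited records carry no value for a library, so their depth is unknown and control and SAH could not be compared from them. The study itself lists the new lncRNAs that changed most. Among them are the CpG-island-like TCONS_00141564, higher after SAH, and the other GC-rich record TCONS_00032471, lower after SAH. With no value per library, the cortical origin could not be checked against marker genes either.

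In vertebrate genomes, most C bases in CpG are methylated, and methylated C is prone to turn into T, which leaves TpG or, on the complementary strand, CpA. CpG islands are stretches that kept their CpG, usually unmethylated, and many gene starts lie in them. A long RNA that begins in such a stretch, for example one transcribed away from a gene start in the opposite direction, carries CpG-rich sequence.

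The promoter sequence that 8 GC-rich records share with a RefSeq gene start shows how different the CpG content of GC-rich sequence can be. The first 6 belong to CpG-island-like records, and those of Zdhhc22 and Mbd6 to other GC-rich records. Each line gives the part of the shared run that lies before the annotated start site, 5′ to 3′ in the direction of the gene, with every CpG in capitals. The sequences are those of RefSeq, build GRCm38.p6. They lie at chr8:46152442-46152691 (Snx25, minus strand), chrX:71962468-71962624 (Prrg3, plus strand), chr11:97151558-97151756 (Tbkbp1, minus strand), chr5:137741224-137741418 (Nyap1, minus strand), chrX:36903466-36903610 (Nkrf, minus strand), chr11:104132531-104132637 (Crhr1, plus strand), chr12:86990831-86991080 (Zdhhc22, minus strand) and chr10:127289019-127289268 (Mbd6, minus strand). These 8 were chosen after their values were seen.
Snx25: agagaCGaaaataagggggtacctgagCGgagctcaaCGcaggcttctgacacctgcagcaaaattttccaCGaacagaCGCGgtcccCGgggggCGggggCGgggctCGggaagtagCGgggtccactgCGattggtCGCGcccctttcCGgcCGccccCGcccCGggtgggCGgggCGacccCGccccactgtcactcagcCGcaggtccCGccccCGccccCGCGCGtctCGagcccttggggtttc
Prrg3: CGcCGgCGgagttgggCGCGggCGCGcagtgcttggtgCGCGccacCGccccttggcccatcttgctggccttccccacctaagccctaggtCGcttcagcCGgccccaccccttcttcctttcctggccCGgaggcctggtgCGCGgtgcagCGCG
Tbkbp1: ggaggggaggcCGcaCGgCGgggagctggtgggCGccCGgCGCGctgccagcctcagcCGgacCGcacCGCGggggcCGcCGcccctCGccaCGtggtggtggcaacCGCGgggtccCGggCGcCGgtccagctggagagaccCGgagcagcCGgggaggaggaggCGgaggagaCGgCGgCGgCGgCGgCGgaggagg
Nyap1: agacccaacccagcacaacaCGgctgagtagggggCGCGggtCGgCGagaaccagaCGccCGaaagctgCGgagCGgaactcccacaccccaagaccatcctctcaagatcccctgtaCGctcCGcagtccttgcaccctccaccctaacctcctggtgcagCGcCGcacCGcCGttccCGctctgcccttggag
Nkrf: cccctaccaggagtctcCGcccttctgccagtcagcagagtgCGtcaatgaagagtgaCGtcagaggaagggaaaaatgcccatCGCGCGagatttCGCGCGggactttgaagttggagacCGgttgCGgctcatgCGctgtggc
Crhr1: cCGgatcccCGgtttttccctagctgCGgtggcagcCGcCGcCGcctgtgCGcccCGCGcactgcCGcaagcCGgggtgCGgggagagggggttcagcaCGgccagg
Zdhhc22: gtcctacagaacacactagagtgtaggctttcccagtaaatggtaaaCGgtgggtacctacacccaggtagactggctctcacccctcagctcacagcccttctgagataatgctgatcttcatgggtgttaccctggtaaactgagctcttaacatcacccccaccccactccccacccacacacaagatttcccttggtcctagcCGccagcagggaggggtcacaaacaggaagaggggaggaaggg
Mbd6: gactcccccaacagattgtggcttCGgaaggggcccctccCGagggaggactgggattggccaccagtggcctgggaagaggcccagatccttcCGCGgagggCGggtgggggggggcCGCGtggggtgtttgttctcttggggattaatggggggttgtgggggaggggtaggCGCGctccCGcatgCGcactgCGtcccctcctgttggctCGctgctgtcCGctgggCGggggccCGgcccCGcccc

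The 250 bases before the Snx25 start held 28 CpG, an observed/expected ratio of 0.894. The stretch of the same length before the Zdhhc22 start held 2, a ratio of 0.110. Mbd6 lay between them, with 17 CpG in 250 bases and a ratio of 0.554. The 199 bases of Tbkbp1 were the richest in G and C of the 8, at 81.9%, with 29 CpG. The capitals of Tbkbp1 run in a repeated CGG pattern towards its end, whereas those of Nkrf lie in clusters separated by plain sequence, with 12 CpG in 145 bases. The 107 bases of Crhr1 held 13 CpG, the 157 of Prrg3 held 17 and the 195 of Nyap1 held 16.

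Among the 628 GC-rich records the ratio had a median of 0.260 and ran from 0.0356 to 1.14. The CpG-island-like share was 12.3% (Wilson 95% interval 9.92 to 15.1%). Intervals here cover counting error only, and records are not replicates, since some share sequence. Of the 7412 records with GC under 50%, 61 (0.823%) also reached a ratio of 0.6. CpG-island-like records held a median of 43 CpG, against 15 in other GC-rich records and 9 over all records. Per 100 nt the medians were 5.86, 1.58 and 0.757 CpG. These CpG values describe the classes, since the classes were cut from them.

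**Figure D1:**
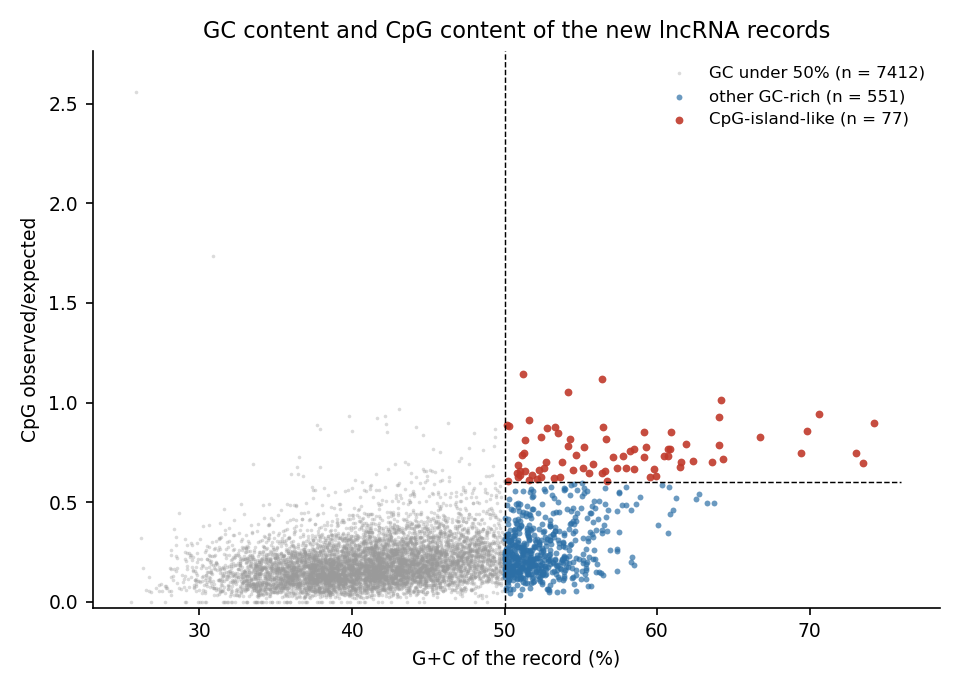
Each point is 1 of the 8040 records, with its G+C content in percent on the horizontal axis and its CpG observed/expected ratio on the vertical axis. Dashed lines mark 50% and 0.6, and the 77 CpG-island-like records above both spread from 50.2 to 74.2% G+C, while other GC-rich records stop at 63.7%.

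GC content and CpG content were not the same ordering. Over the 628 records their Pearson correlation was 0.516 (Spearman 0.356), and over the 77 CpG-island-like records it was 0.176 (0.257), both as a description across sequences that share their base counts. Among the 10 records of highest ratio, TCONS_00121167 (1.14) had a G+C content of only 51.2% in 211 nt, and it was also the shortest of its class. TCONS_00024009 (1.12) had 43 CpG in 484 nt at 56.4% G+C. TCONS_00182012 (1.05) had the same 43 CpG in 563 nt. TCONS_00012778 followed at 1.01, and the other 6 lay between 0.883 (TCONS_00150405) and 0.945 (TCONS_00046289). In these 4 leading records CpG was thus at or above the number that the C and G content alone gives.

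The 5 records richest in G and C were all CpG-island-like. TCONS_00045337 had 74.2% G+C and the densest CpG of all, 12.3 per 100 nt. TCONS_00187550 had 73.5%, TCONS_00251049 had 73.0%, TCONS_00046289 had 70.6% and TCONS_00251878 had 69.8%. All 5 were short, between 304 and 601 nt. The longest of the class, TCONS_00074487 with 2375 nt, held 143 CpG, the highest count among all records.

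At the threshold on G+C, TCONS_00012587 and TCONS_00032471 lay just inside, at 50%, and TCONS_00013048 (49.97%) and TCONS_00011493 (49.96%) lay just outside. At the ratio of 0.6, TCONS_00213798 and TCONS_00059293 were just inside, both at 0.607, and TCONS_00140280 (0.596) and TCONS_00238536 (0.589) just outside. No gap in the values separated the classes at either threshold.

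TpG and CpA, the dinucleotides that methylated CpG turns into, were lower in the CpG-island-like class. The median TpG ratio was 1.02 (quartiles 0.930 to 1.10) against 1.27 (1.18 to 1.35) in other GC-rich records and 1.24 over all records. The median CpA ratio was 1.05 (0.932 to 1.16) against 1.28 (1.19 to 1.38) and 1.25. The upper quartile of the first class thus lay below the lower quartile of the second for both, although the ranges overlapped. GpC, which has the same bases in the other order, differed less and the other way, at 1.03, 0.904 and 0.966. With counts pooled over the records of a class, TpG stood at 1.01 and 1.25, and CpA at 1.03 and 1.28.

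Across records, a higher CpG ratio went with lower TpG and CpA ratios. Over the 628 records the Pearson correlation was -0.598 for TpG (Spearman -0.537) and -0.601 for CpA (-0.534). Within the CpG-island-like class it was -0.250 and -0.433, and within the other class -0.421 and -0.459. The measures are not independent, because a C or G that stands in a CpG cannot stand in a CpA or TpG, so no test is given. TCONS_00024009 had the lowest TpG ratio (0.743) and the lowest CpA ratio (0.576) of its class. TCONS_00121167, with a CpG ratio that was as high, had 1.17 and 1.02.

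**Figure D2:**
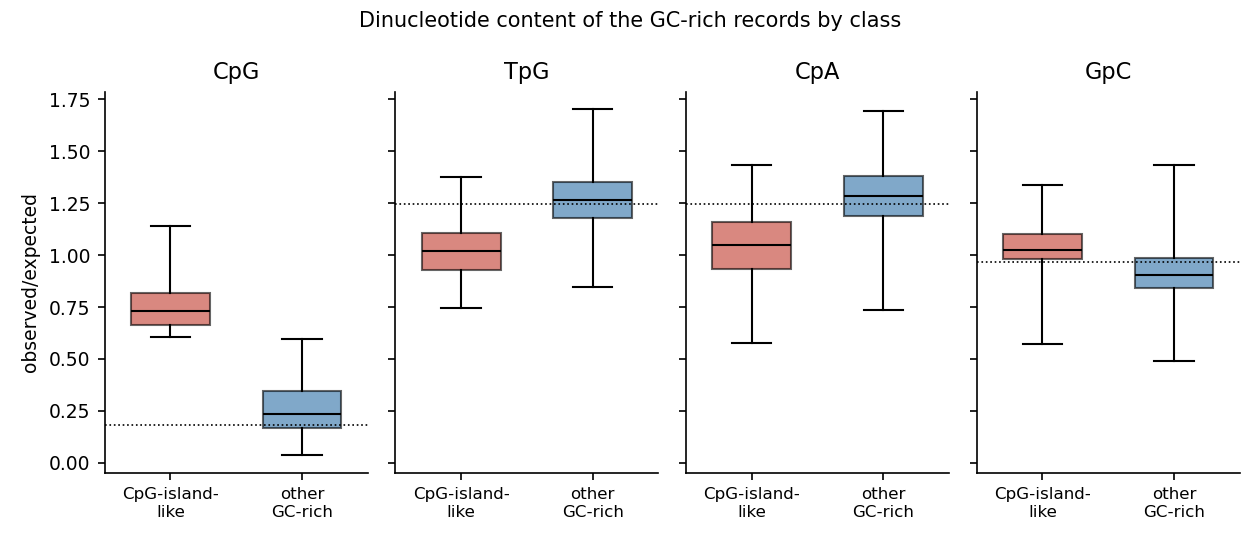
Observed/expected ratios of 4 dinucleotides in 77 CpG-island-like and 551 other GC-rich records, with boxes from the lower to the upper quartile, a line at the median, whiskers to the lowest and highest record and a dotted line at the median of all 8040 records. CpG was used to define the classes, and TpG and CpA medians are near 1 in the CpG-island-like class and near 1.3 in the other.

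How much of a record was island-like varied. An island window is taken here as any 200 bases with at least 50% G+C and a ratio of at least 0.6. Such windows covered a median of 82.6% of a CpG-island-like record, or 571 bases, and at least 50% of the record in 69 of 77. The lowest cover was 39.2%, in TCONS_00213798. They reached the first or the last base in 63 of 77 records. In 15 both ends were reached, in 26 only the first base, in 22 only the last base, and in 14 neither. Every record of this class meets both limits over its whole length, so high cover and reached ends follow largely from the rule.

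Island windows were not limited to that class. Of the 551 other GC-rich records 174 (31.6%, interval 27.8 to 35.6%) held one, against 433 of 7412 records (5.84%) with GC under 50%. In these 174 the windows covered a median of 337 bases and reached an end in 70, while 104 had the island sequence inside. The 174 were picked by their CpG content, and TpG and CpA are not independent of it. In both ratios the 174 stood between the CpG-island-like and the other GC-rich class. Their median TpG and CpA ratios were 1.21 and 1.22, against 1.29 and 1.31 in the 377 other GC-rich records with no such window. Of the 174, 15 shared 100 bases or more with the promoter window of 1 gene, and of the 377, 7 did. Over all records 101 of 8040 did (1.26%). The shared run can itself hold the island window, so these counts are not independent of the split.

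Pooled over the class, the ratio stayed above 0.6 in each of 10 equal segments of the CpG-island-like records. Every record of the class has at least 0.6 over its whole length, so this level follows largely from the rule. The pooled ratio was 0.737 in segment 1, highest in segment 5 at 0.806, lowest in segment 8 at 0.664, and 0.674 in the last. Other GC-rich records stood at a lower level, with 0.278 in segment 1, the lowest value of 0.240 in segment 4 and the highest of 0.290 in the last. With 200 bases taken at each end in place of segments, the class values were 0.748 and 0.716, and 0.276 and 0.282. The difference between the ends was small beside that between the classes, and first and last refer to the deposited order of bases.

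**Figure D3:**
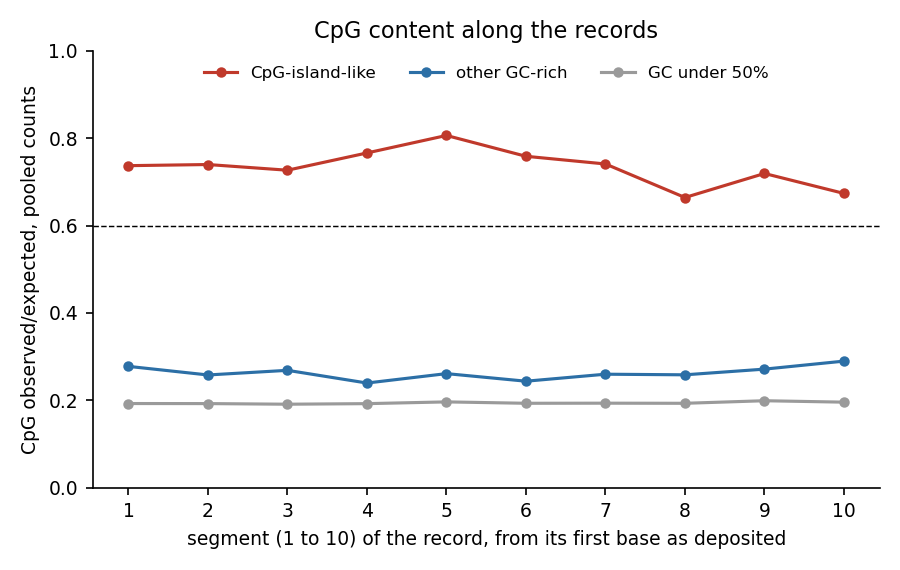
CpG observed/expected ratio, from counts pooled over all records of a class, in each of 10 equal segments of the record from its first deposited base. CpG-island-like records stay between 0.664 and 0.806, above the dashed line at 0.6 that defined the class, and other GC-rich records between 0.240 and 0.290.

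Records were then compared with the stretch from 250 bases before to 50 bases after each RefSeq start site, in 32851 windows of 27025 genes. An exact shared run of 30 bases was found for 19 of 77 CpG-island-like records (24.7%, interval 16.4 to 35.4%) and 96 of 551 other GC-rich records (17.4%, 14.5 to 20.8%), close to the 18.5% of all records. Some runs were shared with many genes, and 24 of the 96 fell in the windows of over 4 genes, as did 1 of the 19. Over all records, 539 of the 1489 with such a run did. With a run of at least 100 bases shared with 1 gene only, the shares were 10 of 77 (13.0%, 7.21 to 22.3%), 22 of 551 (3.99%, 2.65 to 5.97%) and, with GC under 50%, 69 of 7412 (0.931%, 0.736 to 1.18%). The intervals of the 3 classes did not overlap, but the limit to 1 gene was chosen after the data were seen. The shared run is also part of the record whose base counts set its class, so these shares are not independent of the classes.

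The gene starts differed too. Of the 10 windows matched by CpG-island-like records, 9 were themselves island-like by the same thresholds, against 8 of 21 for other GC-rich records, 5 of 62 for records with GC under 50%, and 33.5% of all windows. The shared run is part of both record and window, so these counts are not independent of the classes. Of the 10 genes 8 were protein-coding and 2 were lncRNA genes. Of the 22 matches of other GC-rich records 8 were to protein-coding genes, and of the 69 with GC under 50% 13 were. The protein-coding share over all windows was not counted, so these counts only describe the matches.

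Among the CpG-island-like records TCONS_00222619 held the whole window of Snx25 (gene ID 102141), which encodes a sorting nexin of endosomal traffic. It reached 529 bases beyond the window on the upstream side and 161 on the downstream side. The whole run held 36 CpG and 8 copies of the GC box GGGCGG. TCONS_00139766 held the whole window of the lncRNA gene Gm39783, which was the exception in CpG, with 8 in 300 bases and a ratio of 0.357. The whole record had a ratio of 0.677.

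In 4 records the shared run ended before the start site. TCONS_00040242 shared 199 bases, from -250 to -52, with Tbkbp1 (gene ID 73174), an adaptor of the kinase TBK1 in innate immune signalling, and had 793 more bases upstream. TCONS_00186472 shared 195 bases, from -250 to -56, with Nyap1 (gene ID 243300), a neuronal adaptor of PI3K signalling, and had 191 more. TCONS_00040289 shared 107 bases, from -250 to -144, with Crhr1 (gene ID 12921), a receptor of corticotropin-releasing hormone, and had 655 more. TCONS_00121167 shared 119 bases, from -227 to -109, with the lncRNA gene 5430402O13Rik. The run held 15 CpG, all those of the record.

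In the remaining 4 the shared run began inside the window and covered the start site. In TCONS_00251049 it began at -157 of Prrg3 (gene ID 208748), a transmembrane protein with a Gla domain, and in TCONS_00249815 at -145 of Nkrf (gene ID 77286), a repressor of NF-kappaB target genes. They shared 207 and 195 bases and had 97 and 226 more on the downstream side. TCONS_00177530 shared 122 bases, from -72 to 50, with Vamp9. TCONS_00045337, the record richest in G and C, shared 138 bases with Gm21297 and runs of 30 bases with 9 genes, so its place among these copies is uncertain.

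Shorter runs were found for the other 9 CpG-island-like records with a match. TCONS_00046289 and TCONS_00051105 both shared 83 bases with Gm40847, and each also matched other genes. TCONS_00069571 shared 48 bases with Pip4p1, a phosphoinositide phosphatase, and this run held 7 CpG. TCONS_00012777 shared 47 with Gm35090. TCONS_00208681 shared 44 with Arntl, a core transcription factor of the circadian clock. TCONS_00196027 shared 40 with Cadps2, a factor of dense-core vesicle release, and TCONS_00041109 shared 39 with Eif4a3, a helicase of the exon junction complex. For Pip4p1, Arntl, Cadps2 and Eif4a3 the run was the upstream edge of the window. The runs with 4932416K20Rik (32 bases) and Gm32370 (30 bases) held no CpG.

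**Figure D4:**
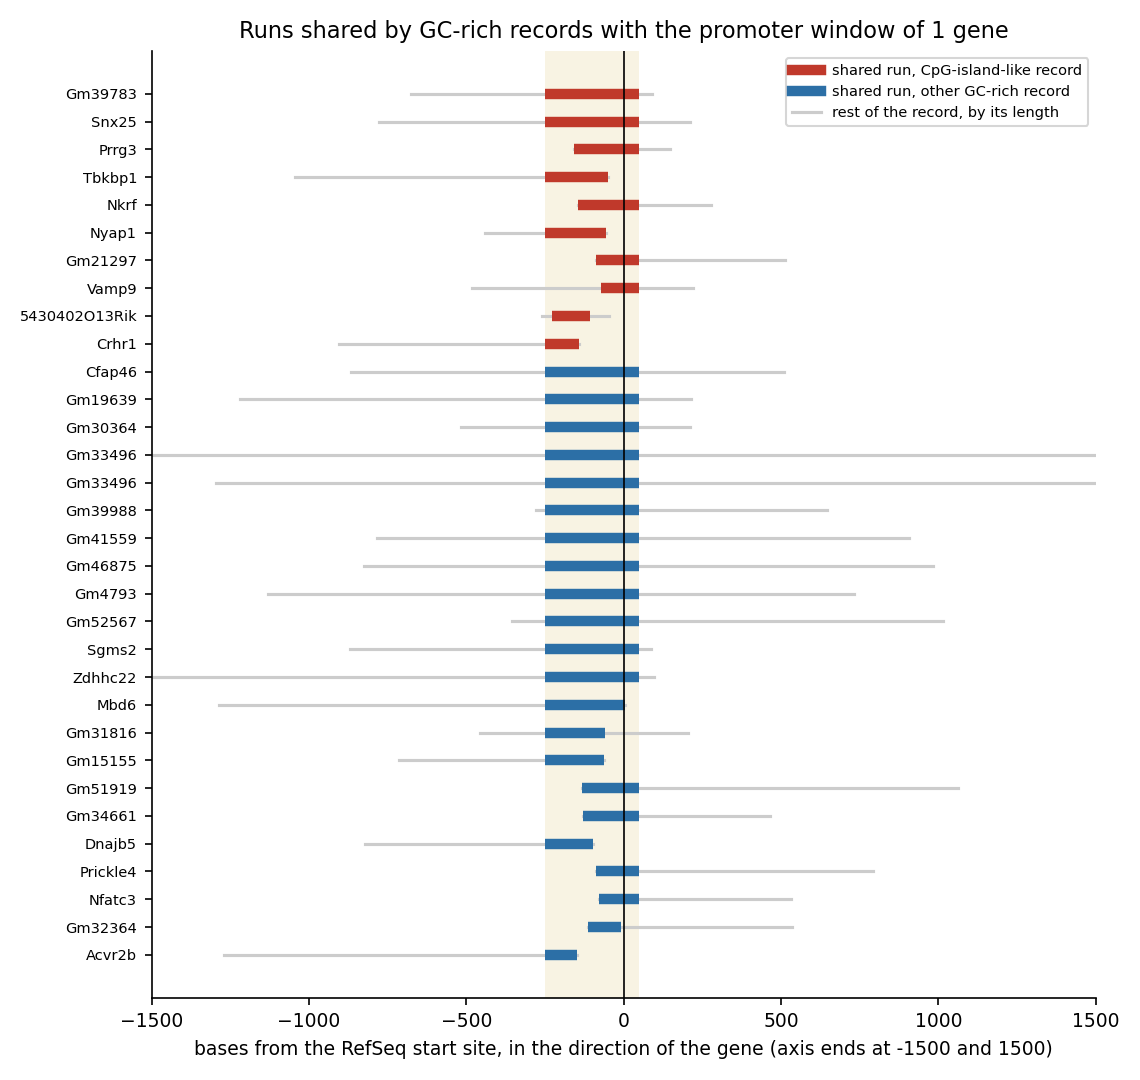
Runs of at least 100 bases that 32 GC-rich records share with the promoter window of 1 gene, placed by their distance in bases from the start site (vertical line) in the direction of the gene, with the window shaded. Grey lines extend each run by the length of the rest of its record, which need not be continuous in the genome, and lines that pass the axis ends are longer than shown. 6 of 10 runs of CpG-island-like records and 17 of 22 of other GC-rich records cover the start site.

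Among other GC-rich records, 12 of the 22 matches to 1 gene took in a whole window. By the order of symbols the leading genes were Cfap46, a gene of motile cilia with 13 CpG in its window, and the lncRNA genes Gm19639 (2 CpG), Gm30364 (6), Gm33496 (3) and Gm39988 (1). Gm33496 was matched by both TCONS_00197204, the longest GC-rich record with 7538 nt, and TCONS_00199891. The other genes of this paragraph were picked after their values were seen. TCONS_00045864 held the CpG-poor start of Zdhhc22, a palmitoyltransferase, and 1960 further bases upstream of it. TCONS_00155201 held the start of Sgms2, a sphingomyelin synthase, with 18 CpG and a ratio of 0.618. TCONS_00026741 shared 253 bases with Mbd6 (gene ID 110962), a protein with a methyl-CpG-binding-type domain, and had 1036 more upstream. TCONS_00162541 shared 154 bases with Dnajb5, a heat shock protein of the DNAJ family, and TCONS_00227785 shared 129 with Nfatc3, a calcineurin-controlled transcription factor. TCONS_00153962 held the whole window of Mex3a, an RNA-binding protein, and also matched a further gene, so it is not among the 22.

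The strand of the deposited sequence did not follow the gene. Of the 32 long matches to 1 gene, 16 ran along the gene's strand, 4 of 10 in the CpG-island-like class and 12 of 22 in the other. By contrast 31 of 32 ran along the plus strand of the chromosome, as did 97 of 101 over all records (96.0%, interval 90.3 to 98.4%). The exception among GC-rich records was TCONS_00121167. A deposited sequence therefore does not give the direction of transcription. Whether a record that covers only the upstream side of Tbkbp1, Nyap1 or Crhr1 was transcribed away from the gene or towards it cannot be told from the file.

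The gene lists followed here were too small to be read against the few matches. CpG-island-like records shared 30 bases with windows of 27 of 27025 genes (0.0999%), and other GC-rich records with 296 (1.10%). Developmental transcription factors (154 genes with a window), ribosomal proteins (76), zinc finger genes (336), immediate early genes (19), synapse genes (19), inflammation genes (14) and RNA splicing genes (33) each had 0 windows among the 27. For other GC-rich records the only match was Rpl5, a ribosomal protein gene, through TCONS_00026781 and TCONS_00182207, and both also matched many other genes.

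Promoter motifs were counted on both strands of each record. The GC box GGGCGG, bound by SP1 and related factors, stood in 55 of 77 CpG-island-like records (71.4%, interval 60.5 to 80.3%), 160 of 551 other GC-rich records (29.0%, 25.4 to 33.0%), 10.5% of all records and 35.7% of promoter windows. Per 1000 bases there were 2.40, 0.416 and 0.105 matches in the 2 classes and over all records. The cAMP response element TGACGTCA stood in 6 of 77 (7.79%, 3.62 to 16.0%) and 3 of 551 (0.544%, 0.185 to 1.59%), and the NRF1 motif GCGCATGC in 6 of 77 (7.79%, 3.62 to 16.0%) and 11 of 551 (2.0%, 1.12 to 3.54%). Over all records these shares were 0.796% and 1.23%, and in promoter windows 1.79% and 2.71%. Per 1000 bases both motifs occurred 0.108 times in CpG-island-like records, against 0.0610 and 0.133 times in windows. Each of these motifs holds a CpG, so its count is not independent of the classes.

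For 2 further motifs with a CpG the classes were not told apart by their shares. The E-box CACGTG was held by 14.3% of CpG-island-like and 15.4% of other GC-rich records, with overlapping intervals (8.17 to 23.8% and 12.7 to 18.7%), against 12.9% of all records and 7.15% of windows. Length bears on this share: among records of 800 to 1600 nt it was 25.7% of 35 and 16.2% of 333, and per 1000 bases there were 0.232 and 0.163 matches. For the ETS motif CCGGAAG the shares were 10.4% and 7.80%, again overlapping (5.36 to 19.2% and 5.85 to 10.3%), against 3.69% and 8.86%. Per 1000 bases this motif occurred 0.139 times in CpG-island-like records and 0.354 times in windows. TCONS_00074487 had the most GC boxes of the CpG-island-like class, 13, and TCONS_00171985 had 12. TCONS_00222619, the Snx25 record, had 9.

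The motifs without CpG were held by a smaller share of both GC-rich classes than of all records. The CCAAT box was held by 54.5% of CpG-island-like, 69.9% of other GC-rich and 80.7% of all records, against 37.4% of windows. Per 1000 bases it occurred 1.16 times in CpG-island-like and 1.29 times in other GC-rich records. The 5′ splice site motif GTAAGT was held by 14.3%, 22.3% and 39.9%, against 7.65%, and the intervals of the first 2 overlapped (8.17 to 23.8% and 19.0 to 25.98%). Its rates per 1000 bases were 0.201 and 0.245. The part of the shorter length of CpG-island-like records in these shares was not tested. The poly(A) signal AATAAA was rarer in both GC-rich classes, at 46.8% and 39.0%, than in all records (78.7%), and stood in 19.6% of windows. Per 1000 bases it occurred 1.28 times in CpG-island-like and 0.566 times in other GC-rich records, although the former had the higher G+C content. Among records of 800 to 1600 nt, 74.3% of the 35 CpG-island-like and 42.9% of the 333 other GC-rich records held it. A match to such short letters is not a binding or processing site, and the windows are 300 bases, so their shares serve only as a scale.

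**Figure D5:**
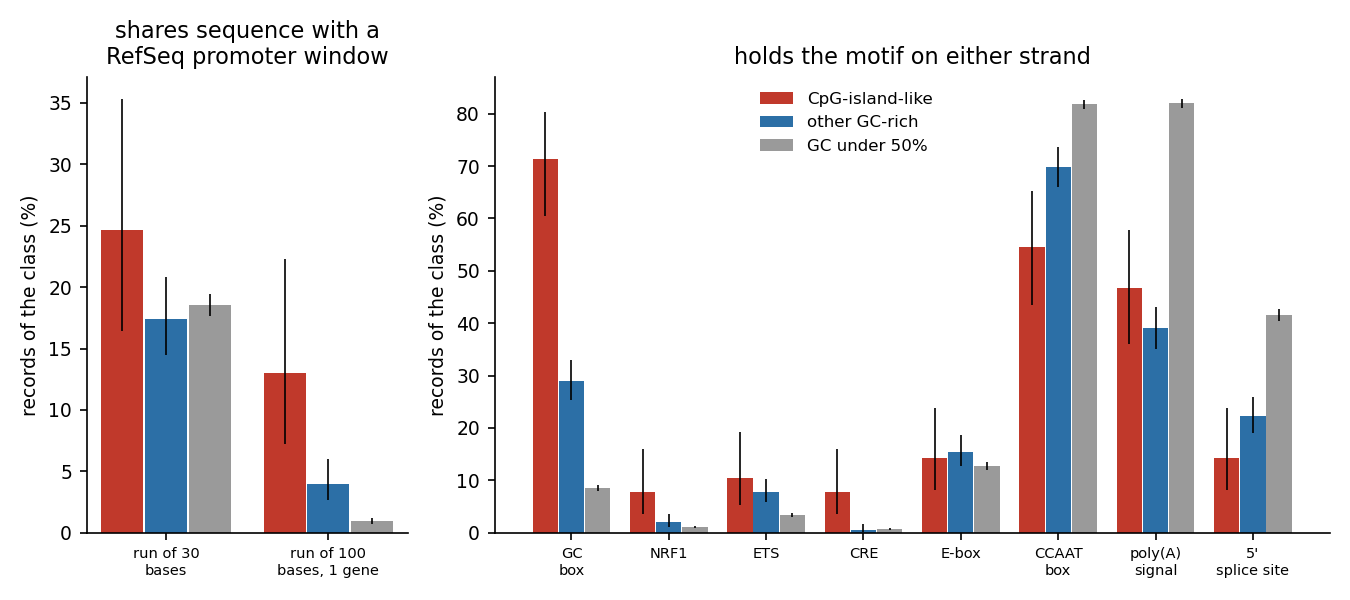
Percent of the records of each class that share an exact run with a RefSeq promoter window (left) and that hold each motif on either strand (right), with Wilson 95% intervals as bars. For a run of 100 bases with 1 gene the 3 classes stand at 13.0, 3.99 and 0.931%, and for the GC box at 71.4, 29.0 and 8.51%.

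CpG-island-like records were the shorter class. Their median length was 801 nt (quartiles 563 to 1010), against 973 nt (743 to 1245.5) for other GC-rich and 1117 nt for all records. The shortest other GC-rich record, TCONS_00215012, had 241 nt. Length and assembly go together in such data, and whether records end where the RNA ended was not tested.

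Both GC-rich classes had strongly folded predictions, and the classes differed little in this. The deposited free energy per 100 nt had a median of -37.1 kcal/mol (quartiles -42.8 to -34.4) in CpG-island-like records, -36.1 (-37.8 to -34.5) in other GC-rich records and -27.9 over all records. Over all 8040 records energy and G+C content had a Pearson correlation of -0.898, as a description across sequences. Relative to a straight line fitted on G+C over all records, the median residual was -0.084 kcal/mol per 100 nt in the CpG-island-like class, -0.973 in the other and -0.206 over all records. The lower energy of the CpG-island-like class was thus no longer seen at equal G+C content, where its residual was slightly above that of all records. Paired bases made up a median of 61.7%, 61.8% and 58.9%.

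Single records spread widely around these medians. TCONS_00187550 and TCONS_00045337 had the lowest energies of the CpG-island-like class, -55.6 and -55.5 kcal/mol per 100 nt, at 73.5 and 74.2% G+C. TCONS_00142525 had the highest, -26.9, at 50.2%. Among other GC-rich records TCONS_00168007 was lowest at -46.0, and it shared 44 bases with the window of Wnt4, a secreted signalling protein. TCONS_00199520 was highest at -22.7, which was 12.1 above the line.

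Long reading frames were counted on both strands. As deposited, 0 of 628 had a frame of at least 100 codons from AUG to a stop, as was the case for 0 of 8040 over all records. The longest such frame over all records had 99 codons, and the study kept only transcripts without coding potential as new lncRNAs. This 0 therefore describes the whole file and is no trait of the GC-rich records. On the complement 9 of 77 CpG-island-like records (11.7%, interval 6.27 to 20.7%) and 90 of 551 others (16.3%, 13.5 to 19.7%) did, against 7.46% of all records. The longest of the 9 had 146 codons, in TCONS_00014663, and the Nkrf record TCONS_00249815 had 110 on the strand that runs along the gene.

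A G-quadruplex motif on either strand, meaning 4 runs of at least 3 G with loops of up to 7 bases, was held by 26 of 77 CpG-island-like records (33.8%, interval 24.2 to 44.9%) and 147 of 551 others (26.7%, 23.2 to 30.5%), against 10.02% of all records. Sequence shared with other records was about as common in both classes, as 21 of 77 (27.3%) and 143 of 551 (25.95%) shared 50 bases with another record, against 39.0% over all records. The 628 formed 560 groups by such sharing, the largest with 16 members. None of 997 distinct RefSeq miRNA hairpins was contained in any record.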

How the data were processed

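RNA of 6 cortex libraries (3 control, 3 SAH) was sequenced after removal of ribosomal RNA. The authors' processing notes name TopHat2 and mm10. The assembler and the folding program are not given in the sources used here. The deposited file holds, for each new lncRNA, an RNA sequence, a predicted structure and a free energy, pooled over all libraries. It holds no counts. Evaluated again with RNAeval (ViennaRNA 2.7.2, the older Turner parameter set), all 628 GC-rich structures came to within 0.01 kcal/mol of their energies, which fixes the unit.

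Base counts, island windows, reading frames, motifs, exact runs shared with RefSeq promoter windows (GRCm38.p6) and groups sharing 50 bases were computed with pandas 2.3.3, numpy 2.4.6 and scipy 1.17.1 under Python 3.11.15, and drawn with matplotlib 3.10.9. On simulated data, 200 of 200 planted runs, reading frames and islands were found. Shares have Wilson 95% intervals, and no test was run over records. Alternatives were other thresholds, pooled counts, energy residuals and counting groups once.

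Named records were the 10 of highest CpG ratio, the 5 of highest G+C, the extremes of length and energy in each class and the 2 nearest each threshold. For CpG-island-like records the plan was to name the 25 genes of longest shared run. The gene of the longest run of each matched record was named instead. Also named were the 5 genes of longest run for other GC-rich records and list members with a match. The members and lists were chosen with earlier results of these data known. The comparison with RefSeq proteins was not run, as no protein table was used here.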

Additional observations from a re-analysis of the deposited data

How the results depend on the processing

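No paired analysis was possible because the deposited file holds no value for a single library, and for the same reason no replicate could be left out. Of 54 alternatives in the unit of the reported value, 32 stayed within its interval or spread, 20 moved and 2 reversed. Motif matches per 1000 bases, 16 more, kept each class on the same side of all records, but for the E-box they turned the order of the classes, to 0.232 in CpG-island-like and 0.163 in other GC-rich records. The reversals were the energy of CpG-island-like records relative to all records, which became 0.122 kcal/mol per 100 nt with the residual of a linear fit on G+C and 0.805 with a quadratic one. For other GC-rich records the same residuals moved to -0.768 and -0.460. The number of GC-rich records fell to 125 at a G+C minimum of 55%. The CpG-island-like share was 9.87% at a ratio of 0.65, 4.94% at 0.75 and 39.97% when any island window counted.

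The share with a promoter run moved to 15.6% and 6.35% of CpG-island-like and other GC-rich records at 50 bases, and to 13.0% and 4.17% at 100 bases. With the run confined to 1 gene, an alternative chosen after seeing the data, it was 13.0% and 3.99%. The gene's strand took 56.5% of other GC-rich matches of 100 bases. Frames of 80 codons on the complement stood in 30.5% of other GC-rich records. Among the 35 CpG-island-like records of 800 to 1600 nt, the GC box was held by 82.9%, the E-box by 25.7%, the CCAAT box by 65.7% and the poly(A) signal by 74.3%. Among the 333 other GC-rich records of that length, the CCAAT box was held by 75.4% and the 5′ splice site motif by 26.4%. The causes of these moves were not tested. Depth is unknown, so the precision of single records cannot be given.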
